A study of Gasterosteus aculeatus with 36 samples.

Results

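Circadian clock genes were followed across 6 stages of threespine stickleback (*Gasterosteus aculeatus*) development. The genes were taken from a list of 10 symbols, of which 7 have a row under that symbol among the 24388 genes of the normalized table: the period genes *per1b* and *per2*, the activators *clockb* and *npas2*, the receptors *nr1d2a* and *nr1d2b*, and the repressor *ciarta*. No row was matched to *per3*, *clocka* or *nr1d1*, and these were not analysed here. The rule used symbols and no measured value, though the list was chosen with earlier results of these data known.

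The fish were 36 whole embryos and larvae, in 12 groups of 3: XY males and XX females at stages 17, 20 and 23 of embryonic development and at 0, 4 and 8 days post-hatching (dph). The step from stage 23 to 0 dph is called hatching below. No stage was sampled between them, so a change at this step may have come before hatching itself. All fish descended from wild-caught parents, were crossed and reared in the laboratory under a summer photoperiod, and were fed brine shrimp once they had hatched. No allele, transgene or treatment separates the groups, and the transcriptomes were made to follow the sex determination gene and its autosomal copy through development and to compare the sexes. The paper's stocks came from Port Gardner Bay (Washington, USA) and the Japan Pacific Ocean (Akkeshi, Japan). The time of day at which fish were preserved, their clutch and their source population are not given in the sources used here. A difference between stages thus cannot be told apart from a difference in time of day, clutch or population. The p-values measure only the spread between these fish.

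The vertebrate clock is a feedback loop of transcription. Clock-type proteins (Clock and its paralog Npas2) pair with Bmal and switch on the period and cryptochrome genes, whose proteins return to the nucleus and inhibit the pair, while Rev-erb receptors (the *nr1d* genes) repress *bmal* and are themselves switched on by the pair. In zebrafish most tissues hold their own clock, light reaches it directly in many cells, and *per2* is induced by light.

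Counted reads per fish ranged from 8637205 to 52089185, with a median of 23246848, and a member had between 1 and 3369 reads in a single fish. Levels are given as normalized read counts, which are the counts divided by a size factor for each fish. Since longer transcripts yield more reads, levels were compared between stages and not between genes. No columns of the tables held identical values. Deviations of the 7 members from the stage mean were weakly correlated with counted reads (Pearson's r between -0.172 and 0.126, permutation p between 0.339 and 0.901 over 36 fish).

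Each of the 7 genes differed between stages in the joint test over all stages, a result shared by 96.8% of the 22168 genes tested. Between the stage with the lowest mean and the stage with the highest, the level differed 38.2-fold for *npas2*, 23.9-fold for *ciarta*, 20.9-fold for *nr1d2a*, 17-fold for *per1b*, 16.0-fold for *nr1d2b*, 4.7-fold for *clockb* and 2.55-fold for *per2*. The highest mean was at 8 dph for 6 of the 7 genes and at 0 dph for *npas2*. Because whole animals were sequenced, a higher level can come from more RNA per cell or from more cells of a type, and these cannot be told apart.

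**Figure D1:**
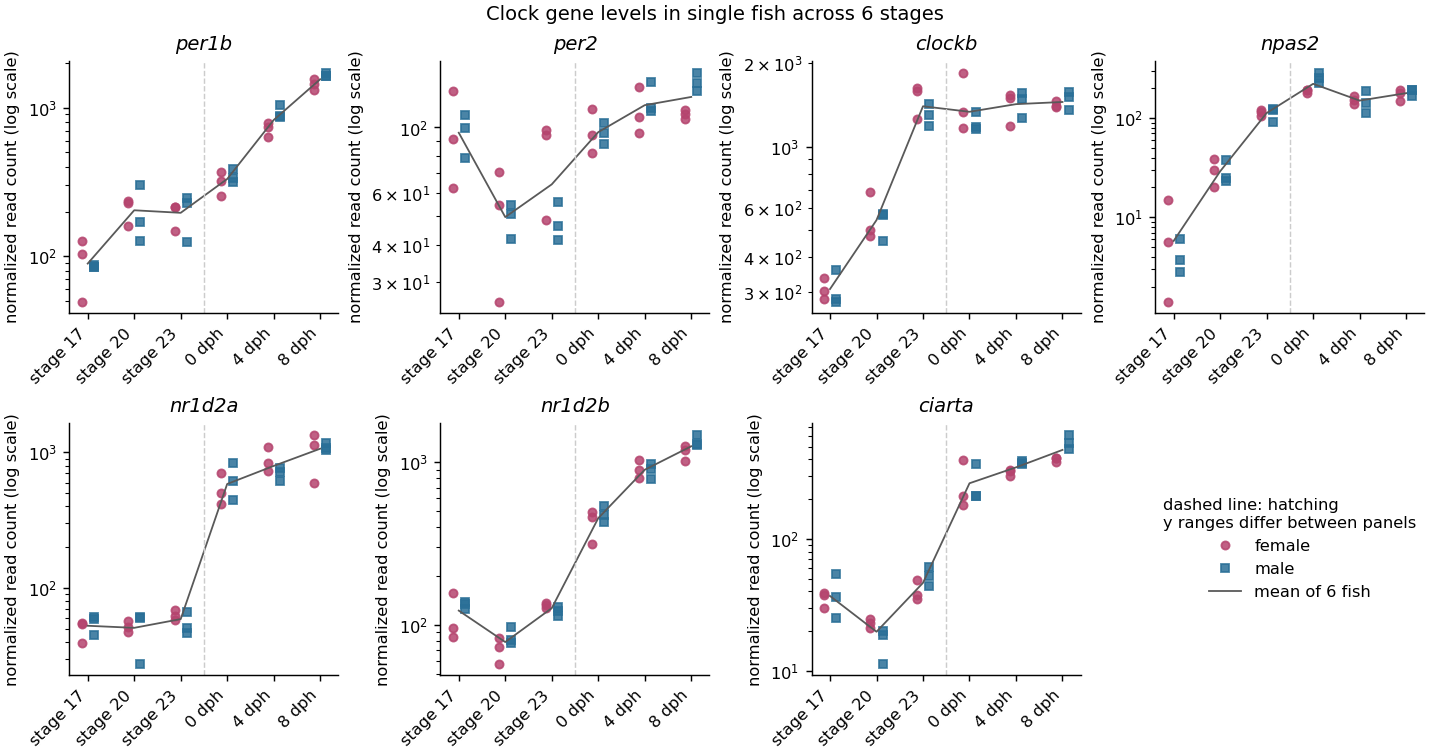
Normalized read counts of the 7 clock genes in each of 36 fish (log axis, whose range differs between panels) by stage, with females as circles, males as squares and a line through the mean of 6 fish. *per1b* climbed from a mean of 89.4 at stage 17 to 1551 at 8 dph, while *nr1d2a* stayed between 27.8 and 69.3 in all 18 embryos and was at 418 or above in all 18 larvae.

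*per1b*, a period gene whose protein inhibits the Clock and Bmal pair, rose in steps. At stage 17 it had 49.6 normalized read counts in the lowest fish, a median of 86.3 and 126 in the highest, and at stage 20 it had 128, 200 and 301. At stage 23 it had 124, 215 and 247. The fish of stages 20 and 23 overlapped over most of their ranges, whereas every fish of stage 20 was above every fish of stage 17. At 0 dph the lowest, median and highest counts were 256, 329 and 387, at 4 dph they were 631, 824 and 1048, and at 8 dph they were 1313, 1593 and 1722. From stage 23 onward no fish of a stage reached the range of the next stage. *per1b* rose by log2 1.21 ± 0.20 (SE, adjusted p = 3.6e-06) from stage 17 to 20, by 0.76 ± 0.17 (adjusted p = 0.000418) at hatching, by 1.24 ± 0.17 (adjusted p = 8.4e-07) from 0 to 4 dph and by 0.91 ± 0.17 (adjusted p = 0.000351) from 4 to 8 dph. Between stages 20 and 23 the difference was -0.10 ± 0.18 (adjusted p = 0.672). In order of mean level, stage 17 was followed by stages 23 and 20, which did not differ beyond their spread, and then by 0, 4 and 8 dph.

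*per2*, the period gene that light induces in zebrafish, covered the narrowest range. It had 62.3 normalized read counts in the lowest fish of stage 17, a median of 95.5 and 133 in the highest, and at stage 20 it had 25.7, 52.8 and 70.5. *per2* fell by 0.92 on the log2 scale (SE 0.20, adjusted p = 0.000192) between these stages, with 1 fish of stage 17 inside the range of stage 20. At stage 23 its counts were 41.7, 52.3 and 98.1, and at 0 dph they were 82.0, 95.0 and 116. *per2* rose by log2 0.65 ± 0.19 (adjusted p = 0.00411) at hatching, and the 2 stages overlapped. It then had 95.5, 115 and 143 at 4 dph and 107, 124 and 153 at 8 dph, steps of log2 0.23 ± 0.19 and 0.07 ± 0.19 that did not pass the test (adjusted p = 0.314 and 0.847). In the order of means the embryonic stages 20 and 23 were lowest and did not differ beyond their spread, and stage 17 lay beside 0 dph, with means of 96.0 and 96.4.

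*clockb*, which encodes a Clock protein, rose at both steps between embryonic stages and was called at no later step. The lowest, median and highest counts were 277, 293 and 362 at stage 17, then 459, 535 and 690 at stage 20, and finally 1186, 1366 and 1621 at stage 23. None of these 3 stages overlapped with another. *clockb* rose by log2 0.83 ± 0.11 (adjusted p = 1.4e-07) from stage 17 to 20 and by 1.33 ± 0.11 (adjusted p = 9.9e-12) from stage 20 to 23. Thereafter it had 1154, 1252 and 1847 at 0 dph, then 1187, 1493 and 1560 at 4 dph, and finally 1355, 1430 and 1569 at 8 dph. The 4 stages from 23 onward overlapped, and their log2 differences of -0.06, 0.03 and 0.01 each had an SE of 0.11 (adjusted p = 0.634, 0.848 and 0.953).

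*npas2*, the paralog of Clock, was close to the limit of detection at stage 17, where 1 to 12 reads per fish gave 1.42, 4.71 and 14.96 normalized read counts in the lowest, median and highest fish. It reached 20.18, 27.3 and 38.3 at stage 20 and 92.0, 117 and 122 at stage 23. At 0 dph its counts were 178, 209 and 287, and no fish of these 4 stages lay in the range of another stage. *npas2* rose by log2 2.30 ± 0.28 (adjusted p = 2.1e-08), 1.92 ± 0.19 (adjusted p = 8.6e-10) and 0.97 ± 0.17 (adjusted p = 1.5e-05) in these 3 steps. It was the only member that fell after hatching. The counts at 4 dph were 111, 146 and 187, a decrease of 0.62 on the log2 scale (log2 fold change -0.62, SE 0.17, adjusted p = 0.00344), and the 2 stages overlapped. At 8 dph they were 148, 184 and 193, with a difference of log2 0.24 ± 0.17 from 4 dph that did not pass the test (adjusted p = 0.357).

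*nr1d2a* and *nr1d2b* encode Rev-erb receptors, repressors that close a second loop on *bmal*. *nr1d2a* was low in embryos, with 39.7, 55.3 and 61.8 normalized read counts in the lowest, median and highest fish at stage 17, then 27.8, 54.5 and 61.5 at stage 20 and finally 46.5, 60.5 and 69.3 at stage 23. At 0 dph it had 418, 560 and 831. The lowest larva thus lay above the highest embryo, and the step at hatching was log2 3.31 ± 0.19, or 9.9-fold (adjusted p = 6.2e-15), the largest of any member at that step. At 4 dph the counts were 620, 751 and 1094, and at 8 dph 595, 1113 and 1353. The larval stages overlapped, with differences of log2 0.37 ± 0.17 (adjusted p = 0.0681) and 0.42 ± 0.17 (adjusted p = 0.0827), while the 2 embryonic differences were -0.06 ± 0.23 and 0.19 ± 0.21 (adjusted p = 0.833 and 0.468).

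The paralog *nr1d2b* changed at every step. It had 84.2, 130 and 157 normalized read counts in the lowest, median and highest fish at stage 17, then 57.8, 79.2 and 97.7 at stage 20 and finally 114, 129 and 137 at stage 23. Stage 20 was thus its lowest stage, after a fall of 0.63 on the log2 scale (SE 0.14, adjusted p = 0.000171), and it then rose by log2 0.67 ± 0.13 (adjusted p = 5.6e-05) to stage 23, with no overlap. *nr1d2b* then had 316, 469 and 542 at 0 dph, followed by 789, 901 and 1033 at 4 dph and by 1020, 1269 and 1480 at 8 dph. These are rises of log2 1.84 ± 0.12 (adjusted p = 9.5e-14), 0.92 ± 0.11 (adjusted p = 9.7e-08) and 0.46 ± 0.11 (adjusted p = 0.00432), of which the last left the 2 stages overlapping. The log2 ratio of *nr1d2a* to *nr1d2b* within a fish was between -1.45 and -0.75 at stage 23 and between 0.02 and 0.81 at 0 dph. The ratios of these 2 stages did not overlap, and at 4 and 8 dph the mean ratio was -0.20 ± 0.18 and -0.27 ± 0.31 (SD, n = 6).

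*ciarta* encodes a circadian repressor that binds the Clock and Bmal pair in mammals. It had 25.2, 36.9 and 53.8 normalized read counts in the lowest, median and highest fish at stage 17, then 11.3, 20.52 and 24.6 at stage 20 and finally 35.2, 46.2 and 61.0 at stage 23. Every fish of stage 20 was below every fish of the stages on either side. *ciarta* fell by 0.85 on the log2 scale (SE 0.22, adjusted p = 0.00138) and then rose by log2 1.22 ± 0.20 (adjusted p = 7.1e-06). At 0 dph it had 182, 213 and 396, a rise of log2 2.51 ± 0.17, or 5.7-fold (adjusted p = 1.8e-13). Its counts were 298, 349 and 389 at 4 dph and 384, 446 and 617 at 8 dph, differences of log2 0.33 ± 0.15 (adjusted p = 0.0755) and 0.42 ± 0.15 (adjusted p = 0.0567) that did not pass the test and left the stages overlapping. Both depend on single fish. The first was called without female 1 (adjusted p = 0.00245) or male 1 at 0 dph (adjusted p = 0.00991), and the second without male 1 of stage 17 or without female 1, female 2 or male 1 of 0 dph (adjusted p between 0.0225 and 0.0495).

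Both fish numbered 1 at 0 dph stood apart from the other 4 fish of that stage in 2 of the 7 members. *ciarta* had 396 and 367 normalized read counts in female 1 and male 1 and between 182 and 213 in the others, and *nr1d2a* had 702 and 831 against 418 to 618. In *per1b* (371 and 316), *npas2* (189 and 225) and *nr1d2b* (464 and 475) they lay within the range of the others, and *clockb* and *per2* did not set both apart either. The same 2 fish were lowest in photoreceptor genes, which were looked at after these values were seen: the cone transducin gene *gnat2* had 2170 and 2130 against 3730 to 4910, and the rod transducin gene *gnat1* had 114 and 38.4 against 260 to 465. Their library names carry the 2 highest numbers of that stage, and what these numbers stand for is not given. Whether any of these differences bears on their clock genes was not tested. Without both fish, 6 members still rose at hatching and 0 fell, with log2 2.16 for *ciarta* (adjusted p = 4.2e-14) and 3.08 for *nr1d2a* (adjusted p = 3.9e-14). From 0 to 4 dph 5 members were then called in place of 3, with *ciarta* higher by log2 0.68 (adjusted p = 8.0e-05) and *nr1d2a* by 0.60 (adjusted p = 0.00636).

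From stage 17 to 20, 6 of the 7 members changed, 3 upward and 3 downward, against 64.3% of all genes tested (34.3% higher, 30.1% lower). The ranges of 4 members did not overlap, against 39.4% of all genes. From stage 20 to 23, 4 members rose and 0 fell, against 58.3% of all genes (30.2% higher, 28.1% lower), and the ranges of 4 did not overlap, against 32.7%. At hatching, from stage 23 to 0 dph, 6 members rose and 0 fell, against 58.4% of all genes (33.7% higher, 24.7% lower), with no overlap for 5 members against 35.7%. The median log2 difference of the members at hatching was 0.97, and that of all genes 0.08. From 0 to 4 dph, 2 members rose and 1 fell, against 48.4% of all genes (24.0% higher, 24.4% lower), and 2 had no overlap against 26.0%. From 4 to 8 dph, 2 rose and 0 fell, against 17.9% (8.44% higher, 9.47% lower), and 1 had no overlap against 9.66%. With DESeq2's size factors in edgeR, and with DESeq2 itself, the count from 0 to 4 dph was 4 higher and 1 lower, as *nr1d2a* and *ciarta* passed the test.

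**Figure D2:**
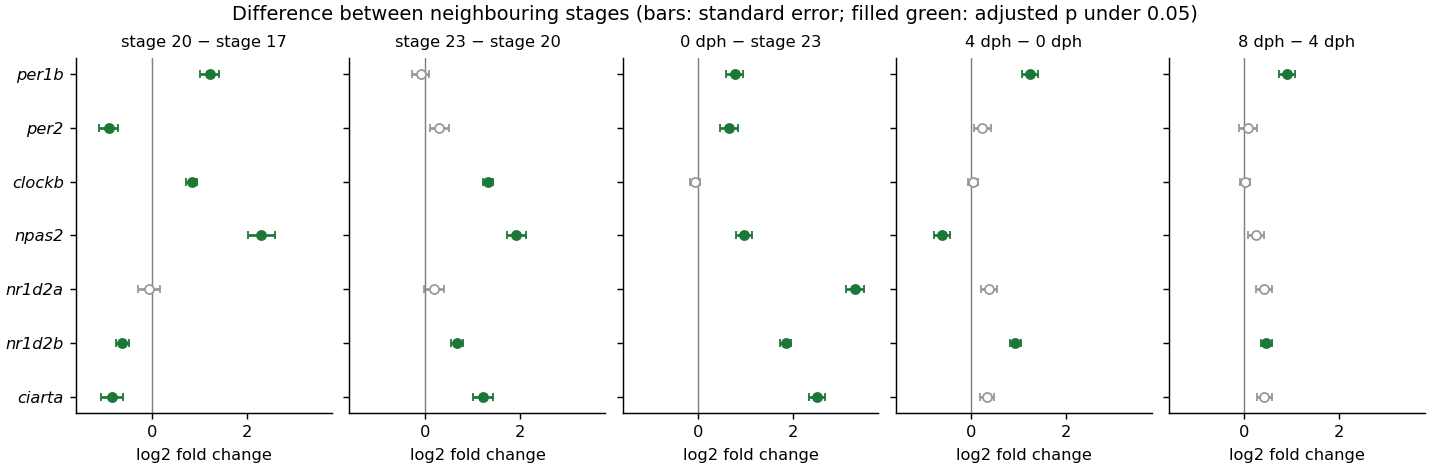
Log2 fold change of each of the 7 clock genes between neighbouring stages (x axis, with SE bars, from one edgeR fit over 36 fish), filled green where the adjusted p was under 0.05 and open grey otherwise. At 0 dph against stage 23 the 6 called genes all lie to the right of 0, from 0.65 for *per2* to 3.31 for *nr1d2a*, and *clockb* sits at -0.06.

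Other clock genes were read from lists of the same pathway. Among clock output factors, which are transcription factors and enzymes that the clock drives, 9 of the 11 measured rose at hatching and 1 fell, against 33.7% and 24.7% of all genes, with a median of log2 1.07 against 0.08. Of the PAR bZIP factors, which activate genes through D-box elements, *dbpb* rose from 172 ± 30.5 (SD, n = 6) to 967 ± 77.1 normalized read counts (5.65-fold), *tefb* from 213 ± 16.3 to 1179 ± 145 (5.56-fold) and *tefa* from 1095 ± 78.3 to 5698 ± 551 (5.23-fold). The 1 gene that fell was *nfil3-5*, a relative of the repressor Nfil3, which binds the same element. It went from 2632 ± 395 to 656 ± 81.4 (log2 -1.99 ± 0.11, SE). All 4 had adjusted p-values between 3.0e-17 and 1.1e-15.

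Of 12 other core clock genes, 2 rose and 4 fell at hatching, with a median of log2 -0.15, against 33.7% higher and 24.7% lower of all genes. The Rev-erb relative *nr1d4a* rose from 21.3 ± 7.24 (SD, n = 6) to 50.5 ± 9.64 normalized read counts (log2 1.27 ± 0.20, SE, adjusted p = 2.2e-06). *rorb*, a receptor of the ROR family, which competes with Rev-erb at the same sites in mammals, fell from 5090 ± 651 to 2102 ± 327 (log2 -1.27 ± 0.14, adjusted p = 5.1e-09). *timeless*, whose product acts in DNA replication in vertebrates, fell from 807 ± 81.2 to 429 ± 69.7 (log2 -0.91 ± 0.11, adjusted p = 2.1e-08), and *arntl1a*, a *bmal1* gene and the partner of Clock, fell from 875 ± 74.1 to 560 ± 65.6 (log2 -0.64 ± 0.09, adjusted p = 1.1e-06). At this step *arntl1a* fell and *clockb* was not called, while *npas2*, *per1b*, *per2*, *nr1d2a*, *nr1d2b* and *ciarta* rose. The *ciarta* paralog *ciartb* fell (log2 -0.49 ± 0.12, adjusted p = 0.00128), and the cryptochrome gene *cry2* was not called (adjusted p = 0.220). Among 7 kinases and ubiquitin ligase parts that act on period and cryptochrome proteins, 1 rose and 3 fell (median log2 -0.14), a number of calls near the 58.4% of all genes. The kinase gene *csnk1e* rose by log2 0.43 ± 0.15 (adjusted p = 0.0132) and the ligase part *fbxw11a* fell by 0.50 on the log2 scale (SE 0.07, adjusted p = 8.8e-07).

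**Figure D3:**
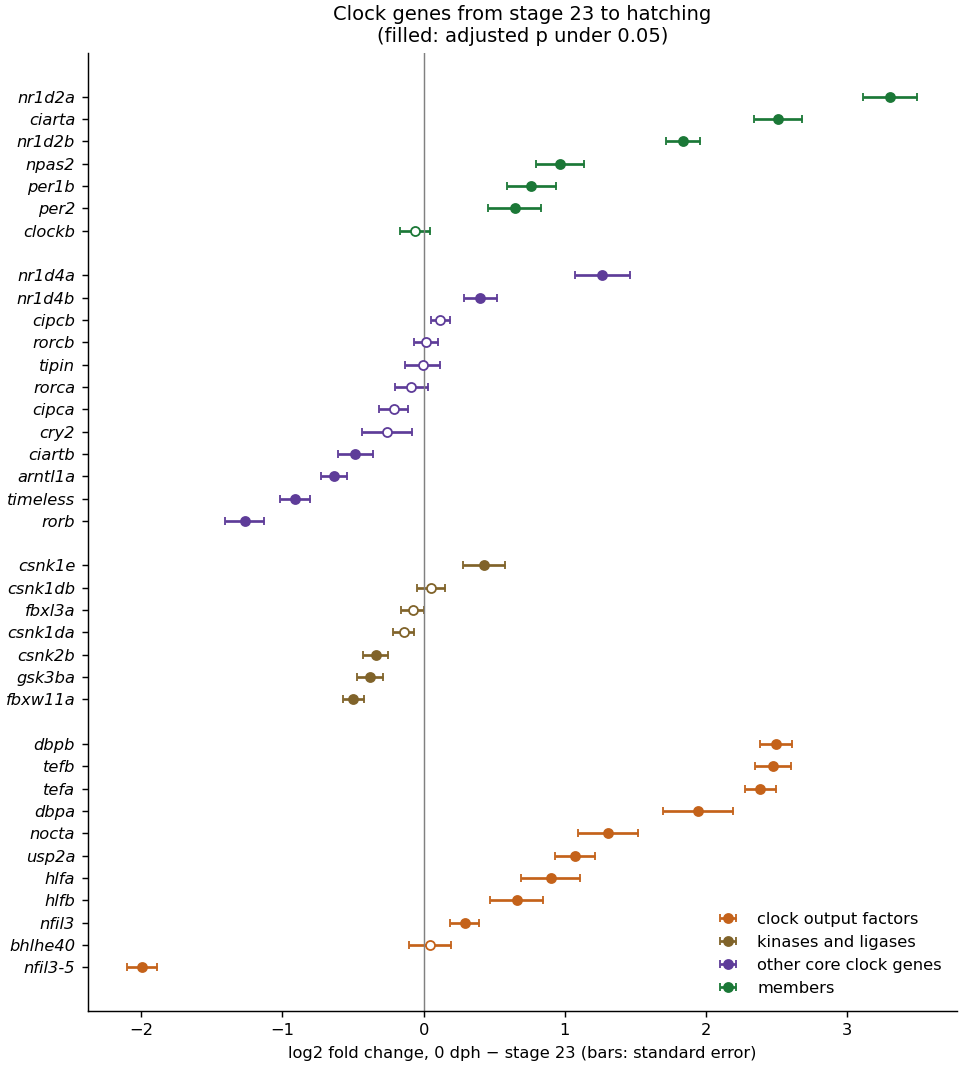
Log2 fold change from stage 23 to 0 dph (x axis, with SE bars) for the 7 members and for the other core clock genes, kinases and ligases, and clock output factors that were measured, filled where the adjusted p was under 0.05. Of the 7 members 6 lie to the right of 0 and are filled, with *clockb* at -0.06, as do 9 of 11 output factors, with *nfil3-5* at -1.99, whereas 4 of the 12 other core clock genes lie to the left of 0 and are filled.

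Markers of developing tissues moved at the same step, and also at earlier steps. Of 13 pineal and photoreceptor markers, 10 rose and 1 fell at hatching (median log2 1.19, against 33.7% higher and 24.7% lower of all genes), with their summed level between 2029 and 2389 normalized read counts at stage 23 and between 4564 and 8624 at 0 dph. The cone transducin gene *gnat2* rose from 49.1 ± 13.5 (SD, n = 6) to 3613 ± 1199 and the rod transducin gene *gnat1* from 9.54 ± 3.28 to 277 ± 171. Of the genes for melatonin synthesis, *aanat1* rose by log2 3.37 ± 0.31 (adjusted p = 2.1e-10), *asmt* by 1.60 ± 0.26 (adjusted p = 3.7e-06) and *tph2*, for the first step of serotonin synthesis, by 1.19 ± 0.24 (adjusted p = 0.000118). *exorh*, the opsin that defines pineal photoreceptors in fish, and *aanat2*, the enzyme of melatonin synthesis in the fish pineal, were not called, at 77.0 ± 8.196 and 83.9 ± 17.97 and at 3.38 ± 2.57 and 6.51 ± 1.63 normalized read counts. Of 13 markers of nerve, muscle, heart, liver and skeleton, 9 rose and 2 fell (median log2 1.29), beside the same shares of all genes. Their summed level went from between 146300 and 186400 to between 412500 and 507000. Most of it at 0 dph came from the muscle genes *ckma*, *mylpfa* and *tnnt3a* (means of 158100, 116900 and 53280). The 2 that fell were the neuronal gene *elavl3* and the liver gene *tfa*, by 1.25 and 0.83 on the log2 scale. The other nerve markers *snap25a* and *gfap* rose by log2 2.59 and 1.29, and the other liver markers *fabp10a* and *apoa2* by log2 1.47 and 1.13. From stage 17 to 20, 12 of these 13 markers rose and 1 fell (median log2 3.32), against 34.3% and 30.1% of all genes. From stage 20 to 23, 9 rose and 3 fell (median log2 1.53), against 30.2% and 28.1%. Of the pineal and photoreceptor markers, 4 rose and 2 fell at the first of these steps (median log2 -0.19), and 5 rose and 2 fell at the second (median log2 0.64). The part of these tissues in the difference of the clock genes was not tested.

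Of 10 measured genes that light induces in zebrafish, 8 fell and 1 rose between stages 17 and 20, against 30.1% lower and 34.3% higher of all genes (median log2 -0.63, against 0.01). Among the 8 was *ddb2* (adjusted p = 0.0478), which no longer passed in 22 of the 36 fits that left out 1 fish. *neil1*, a base excision repair gene, fell by 1.22 on the log2 scale (SE 0.17, adjusted p = 4.2e-07), *phr*, a DNA photolyase, by 1.09 (SE 0.07, adjusted p = 7.9e-14), and *per2* itself by 0.92. Of 11 clock output factors 7 rose and 3 fell (median log2 1.08), and of the 12 other core clock genes 6 rose and 2 fell, beside the same shares of all genes. Those 6 included *rorcb* (adjusted p = 0.0499), which no longer passed in 28 of the 36 fits that left out 1 fish. *nr1d4a* had between 0 and 2.28 normalized read counts at stage 17 and between 9.30 and 20.18 at stage 20 (adjusted p = 8.5e-10), and *rorb* rose by log2 1.64 ± 0.14 (adjusted p = 2.4e-11). From stage 20 to 23, 2 of 11 output factors rose and 2 fell (median log2 -0.02), against 30.2% and 28.1% of all genes. Of the 12 other core clock genes 5 rose and 2 fell, and of the 10 light-induced genes 1 rose and 3 fell. *rorb* rose by log2 1.625 ± 0.141 (adjusted p = 3.5e-11) in this step, to its highest mean at stage 23. At hatching 4 light-induced genes rose and 2 fell (median log2 0.24), against 33.7% and 24.7% of all genes, and *tefa*, which stands in both lists, rose most.

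From 0 to 4 dph, 6 of 11 output factors rose and 2 fell (median log2 0.59), against 24.0% and 24.4% of all genes, with *dbpb* up by log2 1.02 ± 0.11 (adjusted p = 5.2e-09) and *nocta*, a circadian phosphatase, lower by -0.96 ± 0.22 (adjusted p = 0.000525). Of the 12 other core clock genes 4 rose and 3 fell, beside the same shares of all genes, with the largest rise in *nr1d4a* at log2 1.39 ± 0.18 (adjusted p = 3.4e-07). From 4 to 8 dph 2 output factors rose and 1 fell, and 2 other core clock genes rose and 1 fell, against 8.44% and 9.47% of all genes. *rorca* rose by log2 0.51 ± 0.12 (adjusted p = 0.00281) and *timeless* fell by 0.32 on the log2 scale (SE 0.11, adjusted p = 0.044).

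Males were then compared with females. Of the 7 members, 0 were called between males and females at any stage, against 4.42%, 4.63% and 4.92% of all genes at stages 17, 20 and 23 and 4.73%, 4.73% and 4.83% at 0, 4 and 8 dph. Over the 42 tests of 7 genes at 6 stages, edgeR gave 1 unadjusted p under 0.05 and DESeq2 gave 0 calls, and the differences of males from females lay between log2 -0.75 and 0.44. In the model of stage plus sex 0 members were called, against 6.13% of all genes, and 0 in the interaction test of stage with sex, against 0.0451%. In both edgeR tests 0 members had an unadjusted p under 0.05, and DESeq2 called 0. The member with the lowest p was *per2* at stage 23, with 48.7, 94.3 and 98.1 normalized read counts in females and 41.7, 55.9 and 46.2 in males. One female lay within the range of the males, and the difference was log2 -0.75 for males minus females (unadjusted p = 0.00893, adjusted p = 0.162). Leaving out that female made it log2 -1.01 with an adjusted p of 0.0189, so whether it passed the test depended on 1 fish.

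A sex difference was called in 1 of the 12 other core clock genes, a number of calls near the 6.13% of all genes. It was in a paralog of *ciarta*. *ciartb*, matched through its gene ID, was lower in males by 0.98 on the log2 scale over all stages (log2 fold change -0.98, SE 0.07, adjusted p = 1.6e-13) and was called at each of the 6 stages, from log2 -0.79 at stage 23 to -1.26 at stage 20. In *ciarta* the sex differences lay between log2 -0.48 and 0.41 and were not called at any stage, and the difference between the paralogs was not tested. Of the other lists, *ddb2*, *neil1*, *tph2* and *tnnt3a* were also lower in males over all stages, by log2 fold changes between -0.96 and -0.80. The paper reports that the X chromosome was expressed more highly in females than in males. The chromosomes of *ciartb* and of these genes are not given here, and sex linkage was not tested. *ciartb* also went the other way at hatching, where it fell by 0.49 on the log2 scale (SE 0.12, adjusted p = 0.00128) while *ciarta* rose.

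Fish of one stage differed in the members by a pooled SD of log2 0.34 for *per1b*, 0.36 for *per2*, 0.18 for *clockb*, 0.44 for *npas2*, 0.34 for *nr1d2a*, 0.23 for *nr1d2b* and 0.33 for *ciarta*. The median over the 7 was 0.34, against 0.26 over all genes tested. *clockb* was the most even of the 7 and *npas2* the least, with an SD of 0.93 at stage 17, where it had few reads, and between 0.15 and 0.37 at later stages. The spread of *per1b* was 0.44 and 0.45 at stages 17 and 20 and 0.14 at 8 dph. The median SD of the members was above that of all genes at stage 17 (0.36 against 0.25) and stage 20 (0.38 against 0.28) and lay closer to it later (0.22 against 0.20 at stage 23, 0.267 against 0.222 at 0 dph, 0.216 against 0.205 at 4 dph and 0.176 against 0.188 at 8 dph). These SDs include counting noise, whose part was not tested. At stage 20 *ciarta* had 11 to 23 reads per fish, *per2* 24 to 54 and *clockb* 296 to 607. At 8 dph *ciarta* had 232 to 784. edgeR's biological coefficient of variation, which removes counting noise, was 0.21 for *per1b*, or 1.38 times the trend for genes of its abundance (percentile 89.6 of all genes), and 0.21 for *nr1d2a*, or 1.35 times (percentile 89.0). The other 5 members lay between percentile 14.9 (*npas2*) and 67.7 (*ciarta*). These are descriptions with no test, and the time of day of single fish is not known.

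Members that were high in the same fish were sought among 21 pairs, from deviations from the stage mean over 36 fish. Of these, 5 pairs had a permutation p under 0.05, each with a positive r, and 16 of the 21 had r above 0 (median 0.17). The p-values are raw, and the points share a library and its size factor. No share over all pairs of genes was computed to set beside these counts. In the edgeR fit on *per1b* below, 3071 of 22167 genes had an unadjusted p under 0.05. *per2* and *clockb* had the highest r (0.55, p = 0.001, rho = 0.53, p = 0.003), which was positive within 5 of 6 stages and 0.49 without the 2 fish farthest from the median. *per1b* went with *nr1d2a* (r = 0.47, p = 0.003, rho = 0.30, p = 0.083), *npas2* (r = 0.50, p = 0.02, rho = 0.47, p = 0.012) and *ciarta* (r = 0.41, p = 0.023, rho = 0.45, p = 0.01). These r values became 0.39, 0.32 and 0.41 without the 2 farthest fish, and with sex removed as well the p for *npas2* was 0.101 (r = 0.52). The deviations of *npas2* were largest at stage 17 (SD 0.93), where it had 1 to 12 reads per fish. The paralogs *nr1d2a* and *nr1d2b* had r = 0.44 (p = 0.013, rho = 0.50, p = 0.004), also 0.44 without the 2 farthest fish. Within stages the sign held in 5, 6 and 6 of 6 stages for the pairs of *per1b* and in 5 of 6 for the paralogs.

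**Figure D4:**
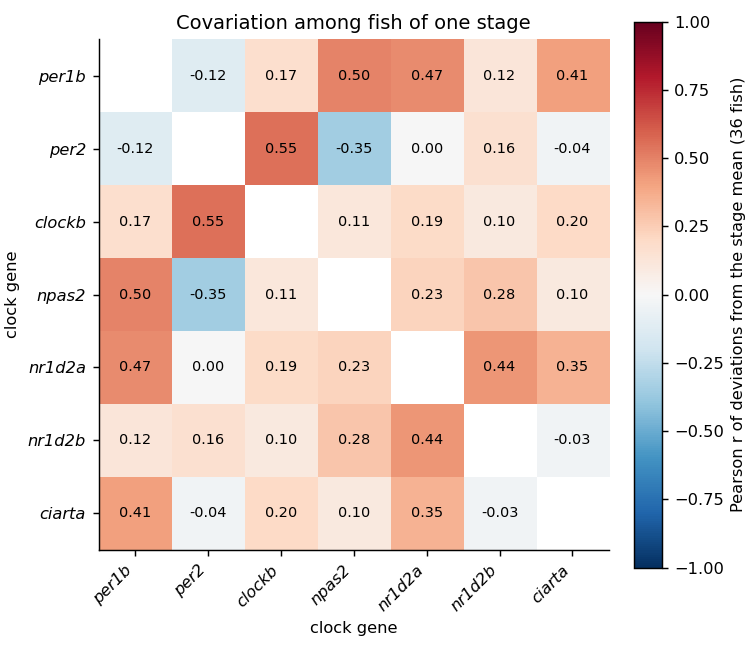
Pearson's r between each pair of the 7 clock genes (both axes), from deviations of log2(normalized read count + 1) from the stage mean in 36 fish, with red for positive and blue for negative r. The 5 pairs with a permutation p under 0.05 have r between 0.41 and 0.55, and the lowest r is -0.35 for *per2* and *npas2*. Within stages, the r of *per2* and *npas2* was -0.99 at stage 17, where *npas2* had few reads. It was between -0.60 and 0.35 at the other stages.

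Genes that followed *per1b* among fish of one stage were also tested across the whole table, in a fit with the deviation of *per1b* as a covariate. Of 22167 other genes 28 were called (0.126%), 20 higher and 8 lower with *per1b*, and 0 of the 6 other members were among them. Of these 6, 2 had an unadjusted p under 0.05 in edgeR (*nr1d2a*, 0.00689, and *npas2*, 0.0391), and DESeq2 called 0. Over all genes 3071 of 22167 had such a p, and with the replicate block 0 of the 6 members did. The count was unstable, with 4 genes when same-numbered fish of a stage were blocked as pairs, 452 with DESeq2 and between 0 and 270 when 1 fish was left out. It moved by over 1.5 times with 27 of the 36 fish, and was 0 without male 1 or male 3 of stage 20 and 270 without female 1 of stage 17. The called genes with a symbol that were higher with *per1b* were *mfsd2b*, *lrp1bb*, *kdm4c* and *klhl22* among the 10 with the lowest p, and the 8 lower ones were *acox3*, *kpna3*, *sar1aa*, *mogat2*, *dnajb1a*, *mgat1b*, *gba2* and an uncharacterised locus. *lrp1bb* had a slope of log2 0.80 ± 0.15 per log2 unit of *per1b* (SE, adjusted p = 0.0204), and *acox3*, which encodes a peroxisomal acyl-CoA oxidase, -0.68 ± 0.12 (adjusted p = 0.0165).

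The genes whose deviations were most like those of each member are given by Pearson's r over 36 fish, as a description. For *per1b* they included *lrp1bb* (0.74), and the most unlike was *kpna3* (-0.72). For *per2* they included *rev3l* (0.74), the catalytic part of DNA polymerase zeta, and *tcf20* (0.70). For *clockb* they included *dip2ba* (0.79) and *wwc1* (0.78), and for *npas2* *chrnb3a* (0.82), a subunit of the nicotinic acetylcholine receptor, and *klhl2* (0.82). For *nr1d2a* they were *fbxo10* (0.75), *lats2* (0.74), a kinase of the Hippo pathway, and *trim23* (0.73), and for *nr1d2b* *bcl2l10* (0.69), *zfyve16* (0.68) and *zfyve9b* (0.67). For *ciarta* all 3 were loci without a symbol (0.74 to 0.76), and the most unlike was *dnajc3a* (-0.73). Most unlike among genes with a symbol were *mob3a* (-0.71) for *per2*, *atad1b* (-0.77) for *clockb* and *crygmx* (-0.70) for *npas2*. The same holds for *ube2j2* (-0.73) with *nr1d2a* and *fsta* (-0.66) with *nr1d2b*. No member was among the 3 genes most like another member.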

How the data were processed

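Whole fish preserved in RNAlater were sequenced as stranded, paired-end mRNA libraries. The deposited counts per gene were made by the authors with Trimmomatic 0.39, HISAT-3N against GAculeatus_UGA_version5, SAMtools 1.17 and HTSeq 2.0.2 with strand reversed, paired and orphan reads added up. The second deposited table, a normalized signal per gene, was made by the authors by dividing those counts by a DESeq2 1.44.0 size factor for each sample; it leaves out genes with under 10 reads over all samples. No columns were pooled or left out.

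Tests used edgeR 4.0.16 (R 4.3.3, limma 3.58.1) on the counts: TMM normalization, filterByExpr on the 12 groups (22168 of 25258 genes kept), glmQLFit and glmQLFTest with stage and sex as one factor over 36 fish, and Benjamini-Hochberg adjustment over all tested genes, called under 0.05. The code was tested on simulated data. A stage is the mean of its male and female groups. The SE of a log2 fold change was derived from its test, as the absolute log2 fold change divided by the square root of the F statistic. Spread and covariation used log2(normalized read count + 1), with 100000 two-sided permutations within stage. Precision is limited by 3 fish per group and by depth, and *npas2* at stage 17 rests on few reads.

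The members and all gene lists were chosen with earlier results of these data known. Listed genes were matched by symbol, or by gene ID through a RefSeq table of another assembly (fGasAcu3.hap1.1), used for names only. Matched were 7 of 10 members, 12 of 24 other core clock genes, 7 of 13 kinases and ligases, 11 of 16 output factors, 10 of 11 light-induced genes, 13 of 17 pineal and photoreceptor markers and 13 of 18 tissue markers. As 7 members were found, 21 pairs replaced the larger number planned. All members are named, and of each list at most 4 called genes with the largest change per step. Of the 3 genes most like each member those with a symbol are named, and of the 2 most unlike the first with a symbol. Of the 10 genes with the lowest p in each direction with *per1b*, those with a symbol are named. Defining photoreceptor and pineal genes (*gnat1*, *gnat2*, *exorh*, *aanat2*), *ciartb*, *cry2*, *ddb2*, *rorcb*, *gfap*, *fabp10a* and *apoa2* were named after their values were seen.

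Alternatives were DESeq2 size factors in edgeR, no filter on low counts, DESeq2 1.42.0 as the test, samples of the compared stages alone, the replicate number as a block, a pseudocount of 5, TMM-scaled counts and deviations from the mean of stage and sex for spread and covariation, and leaving out each fish. For stage contrasts the block was the replicate number, shared across stages. For the sex tests and the fit on *per1b* it was the pair of same-numbered fish within a stage. After the data were seen, both fish numbered 1 at 0 dph were left out together. Replicate numbers in the labels name no shared clutch; taking r over 0.1 as the mark of pairing, 0 dph was the only stage at which all 3 same-numbered pairs passed (r between 0.245 and 0.487), and the block called 0 members there.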

Additional observations from a re-analysis of the deposited data

Results flagged for a closer look

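Single fish stood apart in 2 of the 42 sets of 6 fish of one stage tested, by the gap to the nearest fish against Dixon's critical value, which chance passes in about 1 of 20 sets. Female 1 at 0 dph had 1850 normalized read counts of *clockb*, with the nearest fish at 1330 (gap 0.742 of the range). Female 3 at stage 17 had 15 of *npas2*, with the nearest at 6.08 (gap 0.656 of the range), and rests on 12 reads.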

How the results depend on the processing

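The 5 comparisons of neighbouring stages, the sex comparisons and the count of correlated pairs kept their direction, and no result reversed under any alternative. From 0 to 4 dph 3 members were called, but 5 with DESeq2's size factors in edgeR, 5 with DESeq2 and 5 without both fish numbered 1 at 0 dph (chosen after the data were seen). Leaving out single fish gave 3 to 5 (5 without female 1 or male 1 at 0 dph), and *nr1d2a* was also called without female 2 at 4 dph (adjusted p = 0.0449) or female 3 at 8 dph (adjusted p = 0.0375). From 4 to 8 dph it gave 2 to 3, and for the sexes at stage 23 it gave 0 to 1 (1 without female 1). The 28 genes called with *per1b* became 60 with DESeq2's size factors, 14 with no filter, 452 with DESeq2, 93 without both fish numbered 1 at 0 dph and 0 to 270 without single fish. Over all alternatives and all values of single genes or pairs, listed genes included, 21693 stood as reported, 476 no longer passed the test, 121 newly passed it and 4 moved by more than the spread. With deviations from the mean of stage and sex, *per1b* and *npas2* no longer passed (r = 0.52, p = 0.101), and with a pseudocount of 5 the r of *npas2* and *chrnb3a* was 0.70. The causes were not tested.

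Same-numbered males and females had r over 0.1 in 7 of 18 pairs (mean r 0.0871). In 10 of 18 the closest of the males of that stage had the female's number, and this held for every pair at 0 dph and at 8 dph. The library names number the fish of a stage across both sexes, with no number used again, and name no pairs. Whether replicate numbers pair the fish in part of the series cannot be told from these values. With the replicate block, *nr1d2a* was called from 0 to 4 dph (log2 0.39, adjusted p = 0.0249) and from 4 to 8 dph (log2 0.41, adjusted p = 0.0435), 4 genes were called with *per1b*, and the other calls of members stood as before. Depth limits *npas2* at stage 17, with 1 to 12 reads per fish.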
